A study of Mus musculus with 8 samples.

Results

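Mitochondrial ribosomal proteins build, with ribosomal RNA from mitochondrial DNA, the ribosome that translates inside mitochondria. Their genes were taken here as the protein-coding genes whose symbol starts with Mrpl or Mrps and a digit, which gave 78 of the 54532 genes in the deposited table, 49 named for the large subunit (Mrpl) and 29 for the small subunit (Mrps). The rule used no measured value. RNA-Seq libraries came from LSK cells, marrow cells without lineage antigens that carry Sca-1 and c-Kit and include stem and progenitor cells, and compared the EpCAM+ fraction (4 libraries) with the EpCAM− fraction (4 libraries). All mice were Zeb1-/- on a C57BL/6 background (genotype Zeb1fl/fl;Mx1-Cre+), 8 to 12 weeks old, and had been given pIpC, which switches on Cre, with cells taken 14 days after its last dose. Both fractions therefore came from mice of the same genotype and treatment, and no library came from mice with intact *Zeb1*. The extent of the deletion in each fraction was not measured here. The Mx1 promoter drives Cre outside blood cells too, including the marrow niche, so the deletion was not limited to the sorted cells. The EpCAM+ libraries 1 to 4 held 15225714, 16743224, 17073546 and 15459106 counts on genes, and the EpCAM− libraries 1 to 4 held 15929923, 14114491, 15085883 and 14349327.

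Mitochondrial DNA encodes ribosomal and transfer RNAs and a small set of respiratory chain and ATP synthase subunits, so every protein of the mitochondrial ribosome is made in the cytosol and imported. The small subunit binds the mRNA and reads its codons, while the large subunit joins the amino acids and passes the new chain to the inner membrane. Resting blood stem cells are known to rely little on oxidative phosphorylation, and its use increases as progenitors divide and differentiate.

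Genes for mitochondrial ribosomal proteins were lower in the EpCAM+ fraction, in both subunits and by similar amounts. Of the 77 members with enough counts to test, 58 (75.3%) were lower in EpCAM+ cells at an adjusted p under 0.05 (edgeR's quasi-likelihood test, Benjamini-Hochberg adjustment over all 13560 genes tested), against 20.8% of all tested genes. No member was called higher, against 21.8% of all tested genes, and edgeR at an unadjusted p under 0.05 and DESeq2 likewise gave 0 members higher. The median log2 fold change (EpCAM+ over EpCAM−, so that a negative value is lower in EpCAM+) was -0.38 over the tested members, with quartiles of -0.49 and -0.26 and a range of -0.82 to 0.05, beside a median of 0.02 over all tested genes. The median standard error (SE) of 1 member was 0.09. In 54 members every EpCAM+ library lay below every EpCAM− library, which held for 20.0% of all tested genes, and in 0 members did every EpCAM+ library lie above, against 20.1%. These are relative levels in bulk RNA, in which fewer cells of a type and less RNA per cell cannot be told apart.

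The large and the small subunit gave nearly the same values. Of 48 tested large subunit members 35 were called lower, 32 of the 48 had fractions that did not overlap, and their median log2 fold change was -0.38. Of 29 small subunit members 23 were called lower, 22 had fractions that did not overlap, and their median was -0.39. The large minus small difference of these medians was 0.01, in a range of -0.01 to 0.03 over all alternatives. Whether the subunits differ was not tested. Some symbols give the wrong subunit, since the proteins of *Mrps18a* and *Mrps30* sit in the large subunit of the solved structures and that of *Mrps36* belongs to the 2-oxoglutarate dehydrogenase complex. Subunit, site and origin of each member were assigned from general knowledge of the structures, not from a reference table, and have not been checked. By these classes, 37 of 50 tested large subunit members and 20 of 26 small subunit members were called lower, with medians of -0.38 and -0.37. Tested members classed as conserved numbered 46, with 31 called lower and a median of -0.37. Those classed as mitochondria-specific numbered 30, with 26 called lower and a median of -0.38, and include *Mrps18a* and *Mrps18b*, both called lower, although these are related to a bacterial protein. Split by both, the shares called lower were 20 of 30 conserved and 17 of 20 mitochondria-specific genes in the large subunit (medians -0.37 and -0.38), and 11 of 16 and 9 of 10 in the small subunit (medians -0.37 and -0.42). Whether these classes differ was not tested.

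**Figure D1:**
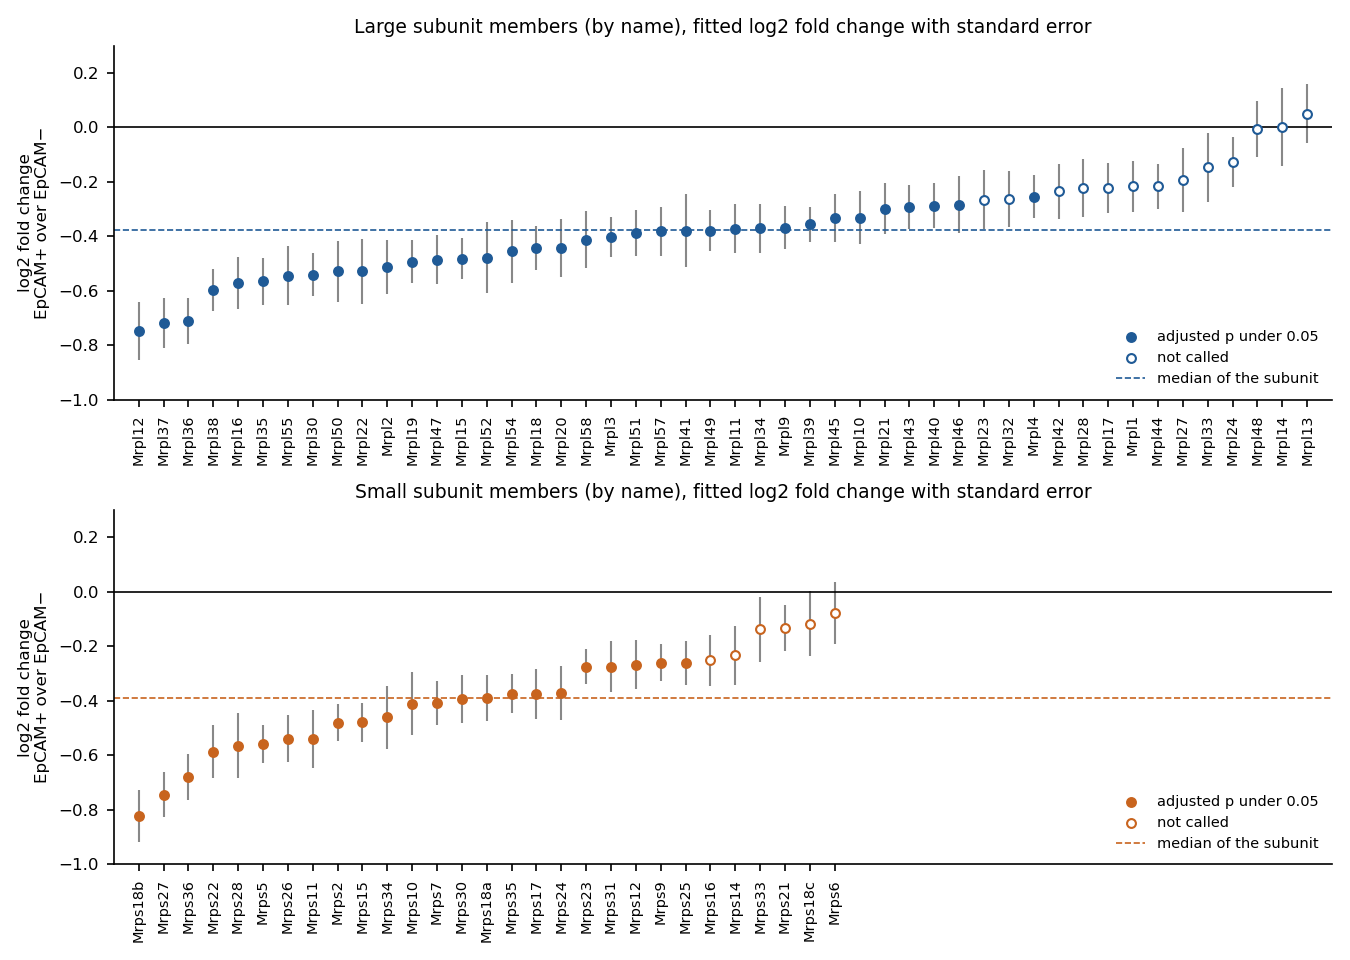
Log2 fold change, EpCAM+ over EpCAM− (y axis), of each of the 77 tested members (x axis) with bars of 1 SE, the large subunit above and the small subunit below; dashed lines are subunit medians. Filled points have an adjusted p under 0.05: 58 lie below 0 and 0 above.

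Among large subunit members the smallest adjusted p belonged to *Mrpl36*, the counterpart of a very small bacterial ribosomal protein. *Mrpl36* stood at 126, 157, 136 and 144 CPM (counts per 1e6 of the scaled library) in EpCAM+ libraries 1 to 4 and at 209, 248, 227 and 237 CPM in EpCAM− libraries 1 to 4. The highest EpCAM+ library, number 2, lay well under the lowest EpCAM− library, number 1. The log2 fold change was -0.71 (SE 0.08, adjusted p = 0.000283). *Mrpl38*, a protein of the central protuberance, a ridge on top of the large subunit, stood at 80.0, 78.0, 71.4 and 69.6 CPM in the EpCAM+ and 104, 121, 110 and 117 CPM in the EpCAM− libraries. No library of one fraction reached the other, and the log2 fold change was -0.60 (SE 0.08, adjusted p = 0.000378). *Mrpl37*, which has no bacterial counterpart, stood at 101, 106, 103 and 113 CPM in the EpCAM+ and 149, 166, 181 and 200 CPM in the EpCAM− libraries. Its EpCAM+ values lay close together, its EpCAM− values spread more with library 4 highest, and the log2 fold change was -0.72 (SE 0.09, adjusted p = 0.000394).

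*Mrpl12*, the stalk protein that contacts translation factors, had the largest decrease in the large subunit. *Mrpl12* was measured at 74.8, 93.6, 85.1 and 95.1 CPM in the EpCAM+ and at 120, 155, 150 and 161 CPM in the EpCAM− libraries. Library 1 was the lowest in both fractions, the fractions did not overlap, and the log2 fold change was -0.75 (SE 0.11, adjusted p = 0.000657). *Mrpl30*, a conserved protein, was measured at 98.1, 101, 107 and 111 CPM in the EpCAM+ and at 134, 157, 153 and 164 CPM in the EpCAM− libraries. The EpCAM+ libraries were close to each other and all below EpCAM− library 1, with a log2 fold change of -0.54 (SE 0.08, adjusted p = 0.000683). *Mrpl35*, also conserved, was measured at 102, 119, 108 and 123 CPM in the EpCAM+ and at 148, 177, 164 and 180 CPM in the EpCAM− libraries. Libraries 2 and 4 were the higher ones in both fractions, which did not overlap, and the log2 fold change was -0.57 (SE 0.09, adjusted p = 0.000876).

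In the small subunit the largest decrease of all 77 tested members was that of *Mrps18b*, 1 of a trio of genes descended from a single bacterial ribosomal protein. *Mrps18b* stood at 37.3, 34.0, 32.9 and 37.1 CPM in the EpCAM+ and at 54.6, 64.0, 59.4 and 71.9 CPM in the EpCAM− libraries. Every EpCAM+ library was far below every EpCAM− library, of which number 4 was the highest. Its log2 fold change was -0.82, a level 1.77-fold lower (SE 0.10 on the log2 scale, adjusted p = 0.000264). *Mrps27*, a pentatricopeptide repeat protein with no bacterial counterpart, stood at 44.1, 43.8, 41.6 and 37.2 CPM in the EpCAM+ and at 65.0, 70.6, 67.2 and 76.6 CPM in the EpCAM− libraries. The replicates of each fraction were close, the fractions were apart, and the log2 fold change of -0.74 (SE 0.08) had the smallest adjusted p of any member, 0.000227. *Mrps36* stood at 58.6, 64.2, 58.0 and 67.3 CPM in the EpCAM+ and at 88.4, 102, 96.9 and 110 CPM in the EpCAM− libraries. The fractions did not overlap, and the log2 fold change was -0.68 (SE 0.09, adjusted p = 0.000355).

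*Mrps5* lies where the mRNA enters the small subunit. It had 89.2, 93.7, 90.6 and 94.0 CPM in the EpCAM+ and 123, 132, 139 and 147 CPM in the EpCAM− libraries. The EpCAM+ values were nearly equal and all under the lowest EpCAM− value, with a log2 fold change of -0.56 (SE 0.07, adjusted p = 0.000368). *Mrps2*, a conserved protein, had 66.9, 71.4, 70.1 and 66.0 CPM in the EpCAM+ and 88.4, 97.3, 94.9 and 102 CPM in the EpCAM− libraries. Here too the replicates were close and the fractions apart, with a log2 fold change of -0.48 (SE 0.07, adjusted p = 0.000602). *Mrps15*, conserved as well, had 126, 137, 128 and 137 CPM in the EpCAM+ and 166, 186, 190 and 195 CPM in the EpCAM− libraries. Its fractions did not overlap, and the log2 fold change was -0.48 (SE 0.07, adjusted p = 0.000811).

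By place in the ribosome, decreases were found at each site examined. All 3 stalk genes were called lower with fractions that did not overlap: *Mrpl12* as above, *Mrpl11* at a log2 fold change of -0.37 (SE 0.09, adjusted p = 0.00779) and *Mrpl10* at -0.33 (SE 0.10, adjusted p = 0.0213). The adjusted p of *Mrpl10* was 0.0615 without EpCAM+ replicate 3 and 0.0523 without EpCAM− replicate 4. Of 7 genes of the central protuberance 6 were called lower (median -0.41), and 4 of the 7 had fractions that did not overlap. *Mrpl40*, in this group, had a log2 fold change of -0.29 (SE 0.08, adjusted p = 0.0178), and its adjusted p was 0.0567 without EpCAM+ replicate 3. *Mrpl52* had a log2 fold change of -0.48 (SE 0.13, adjusted p = 0.0139), although EpCAM+ library 4 (57.8 CPM) and EpCAM− library 1 (57.7 CPM) crossed. *Mrpl46* had a log2 fold change of -0.28 (SE 0.10, adjusted p = 0.048), a call lost without any 1 of EpCAM+ replicates 1, 3 and 4 or EpCAM− replicates 2, 3 and 4 (adjusted p from 0.0559 to 0.108), with a minimum of 10 counts in every library (0.0632) or among protein-coding genes alone (0.0509). Around the peptidyl transferase centre, where the peptide bond forms, 4 of 5 genes were called lower (median -0.40), and both genes of the mRNA entrance were (median -0.46). With upper-quartile scaling the calls of *Mrpl10* (adjusted p = 0.0695, range over all alternatives 0.00746 to 0.0695), *Mrpl40* (0.0779, range 0.0032 to 0.0779) and *Mrpl46* (0.165, range 0.00499 to 0.167) were lost, as they were with library totals (0.0514, 0.0565 and 0.167).

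The exit tunnel and the head of the small subunit had medians nearer to 0. At the exit tunnel 3 of 6 genes were called lower (median -0.30), among them *Mrpl45*, which ties the tunnel exit to the inner membrane, at -0.33 (SE 0.09, adjusted p = 0.0128). In the head of the small subunit 5 of 7 genes were called lower (median -0.27). *Mrps12*, the decoding centre protein, stood at 129, 138, 114 and 125 CPM in the EpCAM+ and at 139, 175, 144 and 151 CPM in the EpCAM− libraries. EpCAM+ library 2 came within 1 CPM of EpCAM− library 1 without crossing it, and the log2 fold change was -0.27 (SE 0.09, adjusted p = 0.0356). That call was lost without any 1 of EpCAM+ replicates 1, 3 and 4 or EpCAM− replicates 2 and 4 (adjusted p from 0.0577 to 0.102), with upper-quartile scaling (0.135) and with library totals (0.121), in a range from 0.00671 to 0.135 over all alternatives.

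The genes of the Mrps18 trio had log2 fold changes from -0.82 to -0.12. *Mrps18a*, whose protein is in the large subunit, had 89.2, 109, 99.1 and 100 CPM in the EpCAM+ and 116, 141, 131 and 133 CPM in the EpCAM− libraries, which did not overlap. Its log2 fold change of -0.39 (SE 0.08, adjusted p = 0.00452) was smaller in size than the -0.82 of *Mrps18b*. *Mrps18c* had 70.8, 98.7, 78.3 and 94.2 CPM in the EpCAM+ and 80.9, 106, 88.5 and 95.2 CPM in the EpCAM− libraries. These values were interleaved, though the EpCAM+ library was lower in all 4 pairs of equal replicate number. The log2 fold change of *Mrps18c* was -0.12 (SE 0.12, adjusted p = 0.452, and 0.111 with a block for replicate number). Whether the 3 fold changes differ from each other was not tested. *Mrps30*, the other large subunit protein with a small subunit name, had a log2 fold change of -0.39 (SE 0.09, adjusted p = 0.00544) with fractions apart.

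*Mrpl42*, the member with the highest CPM, stood at 279, 357, 332 and 360 CPM in the EpCAM+ and at 346, 438, 386 and 393 CPM in the EpCAM− libraries. EpCAM− library 1 lay within the EpCAM+ range, and the log2 fold change was -0.24 (SE 0.10, adjusted p = 0.0842). In the fit with a block for replicate number the adjusted p was 0.00692 for *Mrpl42* (0.00692 to 0.274 over all alternatives) and 0.0251 for *Mrpl28* (0.0251 to 0.325), against 0.112 without the block. Without EpCAM− replicate 1 it was 0.0421 for *Mrpl42* and 0.0400 for *Mrpl28*.

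The members with the largest adjusted p showed no separation of the fractions. *Mrpl14*, a conserved protein at the interface with the small subunit, stood at 54.7, 65.9, 57.0 and 59.0 CPM in the EpCAM+ and at 52.4, 80.0, 54.6 and 49.5 CPM in the EpCAM− libraries. The fractions overlapped, with EpCAM− library 2 above and the other 3 EpCAM− libraries below all EpCAM+ values, and the log2 fold change was 0.00 (SE 0.14, adjusted p = 0.995). *Mrpl48*, of the central protuberance, stood at 87.9, 103, 98.0 and 109 CPM in the EpCAM+ and at 92.2, 120, 93.5 and 93.4 CPM in the EpCAM− libraries. Again EpCAM− library 2 was the highest of all 8 and the rest overlapped, with a log2 fold change of -0.01 (SE 0.10, adjusted p = 0.964). *Mrpl13*, the member with the highest log2 fold change, stood at 138, 190, 174 and 185 CPM in the EpCAM+ and at 149, 186, 160 and 169 CPM in the EpCAM− libraries. Library 1 was low and library 2 high in both fractions, and the log2 fold change was 0.05 (SE 0.11, adjusted p = 0.733). The sign of these 3 values turned in some alternatives.

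*Mrpl33*, *Mrps6*, *Mrps33* and *Mrps21* were likewise not called. *Mrpl33* had a log2 fold change of -0.15 (SE 0.13, adjusted p = 0.367), with 126 CPM in EpCAM− library 2 and 78.3 to 93.7 CPM in the other 7 libraries. *Mrps6* had 51.2, 51.5, 42.6 and 41.2 CPM in the EpCAM+ and 44.1, 58.3, 49.8 and 44.8 CPM in the EpCAM− libraries. These overlapped, and the log2 fold change of *Mrps6* was -0.08 (SE 0.11, adjusted p = 0.604). The values were -0.14 (SE 0.12, adjusted p = 0.371) for *Mrps33* and -0.13 (SE 0.08, adjusted p = 0.224) for *Mrps21*. The 19 tested members not called had log2 fold changes from -0.27 to 0.05 and, in each, fractions that overlapped. In the fit with a block for replicate number, 10 of these 19 were called lower. Among the 58 members called lower, fractions overlapped in 4, *Mrpl46*, *Mrpl52*, *Mrpl41* and *Mrps10*, the last pair named after their values were seen. *Mrpl41* (adjusted p = 0.0411) was called lower in 8 of 16 alternative analyses, with adjusted p from 0.00235 to 0.106. In all, 47 of the 58 members called lower (28 large, 19 small) were also called lower in each of 16 alternative analyses, and 9 tested members were called in no analysis.

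*Mrpl53* was the single member not tested, with 0 counts in all 8 libraries. Of its 790 exon bases in GENCODE M21, 88.0% lie in exons of *Gm42688* or *Ccdc142os* on the same strand. Reads in such bases fit more than 1 gene, and how they were counted is not stated. Most exon bases are shared with another gene in 3 members, *Mrpl53*, *Mrps25* (69.8%, with *Nr2c2*) and *Mrps34* (77.8%, with *Mapk8ip3* and *Nme3*), of which *Mrps25* and *Nr2c2* lie on opposite strands; *Mrps25* and *Mrps34* were named after their values were seen. The 45 members that share no exon base with another gene had 35 called lower, 32 with fractions apart and a median log2 fold change of -0.38. Of 32 tested members that share some, 23 were called lower and 22 had fractions apart, with a median of -0.38. *Mrps11* and *Mrpl46* lie on opposite strands of chromosome 7 and share 173 exon bases with each other. The table also holds 5 processed pseudogenes with member names, copies of *Mrpl23*, *Mrpl48* and *Mrps36*, which were not counted as members.

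The decrease was found in each replicate number. Replicate numbers pair the libraries, since libraries of the same number deviated together from their fractions, so the EpCAM+ and EpCAM− library of each number were compared. In 70 of 77 members the EpCAM+ library was lower in all 4 pairs, in 4 members in 3 pairs, in 1 member in 2 pairs and in 2 members in 1 pair. The median log2 difference over members was -0.33 in pair 1, -0.39 in pair 2, -0.41 in pair 3 and -0.38 in pair 4, with 74, 76, 74 and 72 members lower. Summed over members, the level was 6883, 8048, 7186 and 7712 CPM in EpCAM+ libraries 1 to 4 (mean 7457, SD 522) and 8630, 10537, 9456 and 9950 CPM in EpCAM− libraries 1 to 4 (mean 9643, SD 807). The highest EpCAM+ library was below the lowest EpCAM− library in this sum. Large subunit members made up 4573, 5428, 4842 and 5208 CPM of it in EpCAM+ and 5785, 7058, 6346 and 6654 CPM in EpCAM− libraries. Small subunit members made up 2310, 2620, 2344 and 2504 CPM in EpCAM+ and 2845, 3479, 3110 and 3296 CPM in EpCAM− libraries.

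Members also moved together between libraries of the same fraction. EpCAM− library 2 had the highest level of its fraction in 52 of 77 members and EpCAM− library 1 the lowest in 69. EpCAM+ library 2 had the highest level of its fraction in 48 members and EpCAM+ library 1 the lowest in 46. Without EpCAM− replicate 2, 53 members were called lower, and without EpCAM+ replicate 1, 52. As a share of unscaled counts, members took 0.691, 0.848, 0.753 and 0.769% in the EpCAM+ and 0.868, 1.01, 0.918 and 0.943% in the EpCAM− libraries.

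**Figure D2:**
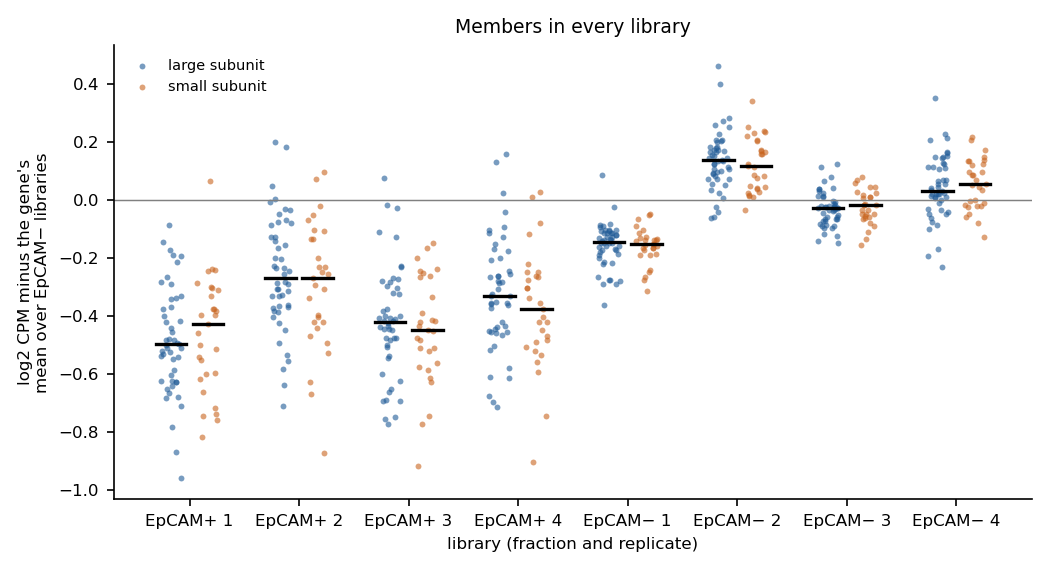
Level of each of the 77 tested members in each library, as log2 CPM minus the member's mean over the EpCAM− libraries (y axis), for EpCAM+ and EpCAM− replicates 1 to 4 (x axis); points are members, coloured by subunit, and bars are subunit medians. The medians of each EpCAM+ library lie below those of every EpCAM− library.

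Levels of different members were compared per kilobase of the gene length in the authors' table, so levels and ranks hold for that length alone. It differs from the merged exons of the annotation in 5 members, and the authors' FPKM columns, which were not used, imply other lengths. Over 8 libraries *Mrpl34* (232 CPM per kilobase) and *Mrpl28* (187) were the most abundant in the large subunit, the latter's place depending on the length taken (1274 bases, against 1380 in merged exons), and *Mrpl47* (10.4) and *Mrpl48* (12.2) the least. In the small subunit *Mrps28* (137 CPM per kilobase) and *Mrps12* (134) were the most abundant, and *Mrps35* (9.74) and *Mrps34* (11.3) the least. The place of *Mrps34* may also depend on how reads in shared exon bases (77.8% of its own) were counted, which is not stated. The decrease did not follow abundance: 21 of 26 members with the lowest mean CPM, 17 of 25 in the middle and 20 of 26 with the highest were called lower, with medians of -0.39, -0.37 and -0.40. Across the 77 members, which share libraries and are not independent, log2 fold change and log2 mean CPM had a Pearson's r of 0.085 and a Spearman's rho of 0.045. With log2 gene length the values were 0.096 and 0.053.

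A list of mitochondrial ribosome subunits with other names also held *Mrpl58*, which is already counted among the members above. Of the list's 6 tested genes 5, *Mrpl58* included, were called lower and 0 higher (0 with DESeq2 and 0 at an unadjusted p under 0.05). The median log2 fold change of these 6 genes was -0.47. *Dap3*, a GTP-binding small subunit protein, stood at 120, 120, 115 and 120 CPM in the EpCAM+ and at 151, 169, 193 and 215 CPM in the EpCAM− libraries. The EpCAM+ values were nearly equal and below all EpCAM− values, with a log2 fold change of -0.62 (SE 0.10, adjusted p = 0.00121). The small subunit protein *Ptcd3* had a log2 fold change of -0.64 (SE 0.12, adjusted p = 0.00182), the large subunit protein *Gadd45gip1* one of -0.52 (SE 0.09, adjusted p = 0.00175) and *Mrpl58*, also a peptide release factor, one of -0.41 (SE 0.10, adjusted p = 0.0103). *Aurkaip1* had -0.26 (SE 0.07, adjusted p = 0.0149), a call lost with upper-quartile scaling (0.0758, range 0.00256 to 0.0758 over all alternatives) and library totals (0.0683), and *Chchd1* had -0.15 (SE 0.14, adjusted p = 0.411), with overlapping fractions.

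Genes that assemble the ribosome or serve it were called lower in part, beside 20.8% of all tested genes, and never higher, and across these 4 lists DESeq2 and an unadjusted p under 0.05 gave 0 higher too. For the large subunit 9 of 15 assembly genes were called lower (median -0.31), led by the rRNA methyltransferase *Mrm3* (log2 fold change -0.56, adjusted p = 0.000401), the helicase *Ddx28* (-0.62, adjusted p = 0.00124) and *Rcc1l* (-0.64, adjusted p = 0.00194). For the small subunit 3 of 9 were, *Rbfa* (-0.49, adjusted p = 0.000681), *Noa1* (-0.55, adjusted p = 0.00285) and *Eral1* (-0.38, adjusted p = 0.00486), with a median of -0.16. Among 13 translation factors 5 were called lower (median -0.22), the elongation factors *Tufm* (-0.61, adjusted p = 0.000296), *Gfm1* (-0.70, adjusted p = 0.000538) and *Tsfm* (-0.67, adjusted p = 0.000708) and, named after their values were seen, *Gfm2* and *Oxa1l*. Of 17 mitochondrial tRNA synthetases 9 were called lower (median -0.33), with the smallest adjusted p in *Mars2* (-0.68, adjusted p = 0.000556), *Yars2* (-0.76, adjusted p = 0.000572) and *Tars2* (-0.41, adjusted p = 0.0034).

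Of 11 tested mRNAs encoded by mitochondrial DNA, which this ribosome translates, edgeR called 0 lower and 1 higher (median -0.11), against 1 lower at an unadjusted p under 0.05 and 1 with DESeq2. Summed, the 13 listed mRNAs had 3477, 4335, 4205 and 4639 CPM in the EpCAM+ and 3800, 4825, 3642 and 4346 CPM in the EpCAM− libraries, which overlapped. *mt-Co1*, a cytochrome c oxidase subunit and the mRNA called higher, had a log2 fold change of 0.35 (SE 0.12, adjusted p = 0.0382), a call lost with no filter beyond 1 count (0.0564) and without any 1 of EpCAM+ replicates 2, 3 and 4 or EpCAM− replicates 1, 3 and 4 (adjusted p from 0.0674 to 0.118). *mt-Nd1*, of complex I, had -0.34 (SE 0.15, adjusted p = 0.0944) and was called lower with DESeq2 (0.0482), with a block for replicate number (0.00226), without EpCAM+ replicate 4 (0.0351) and without EpCAM− replicate 1 (0.0489), in a range of 0.00226 to 0.212 over all alternatives. The rRNAs *mt-Rnr1* (-0.21, SE 0.22, adjusted p = 0.467) and *mt-Rnr2* (-0.13, SE 0.15, adjusted p = 0.500) were not called. Summed, they had 628, 592, 666 and 657 CPM in the EpCAM+ and 680, 971, 565 and 587 CPM in the EpCAM− libraries, which overlapped with EpCAM− library 2 highest. How fully these libraries capture the rRNAs was not tested. Of 13 genes that copy and transcribe mitochondrial DNA 3 were called lower (23.1%, beside 20.8% of all tested genes) and 0 higher, the latter also with DESeq2 and at an unadjusted p under 0.05: *Lrpprc* (-0.62, adjusted p = 0.000538), *Top1mt* (-0.61, adjusted p = 0.00274) and *Tfb2m* (-0.32, adjusted p = 0.0239), with a list median of -0.14. *Tfb2m* lost the call without EpCAM+ replicate 1 (0.0585), EpCAM− replicate 3 (0.0633) or EpCAM− replicate 4 (0.0567), with upper-quartile scaling (0.0754) and with library totals (0.0749), in a range of 0.00455 to 0.0754 over all alternatives.

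**Figure D3:**
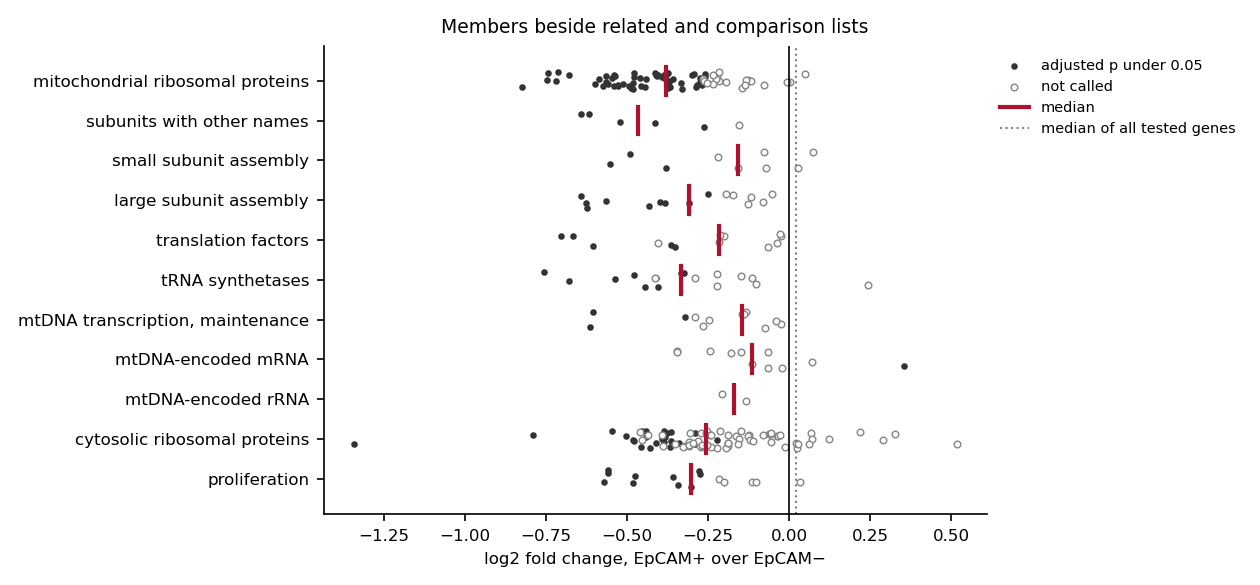
Log2 fold change, EpCAM+ over EpCAM− (x axis), of tested genes in the member list and 10 other lists (y axis). Filled points have an adjusted p under 0.05, red bars are list medians and the dotted line is the median of all tested genes (0.02); the member median is -0.38 and that of mRNAs of mitochondrial DNA -0.11.

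Of 12 known regulators of mitochondrial genes 3 were called lower (*Myc*, *Max* and *Gabpa*, named after their values were seen) and 3 higher (median -0.13), beside 20.8% and 21.8% of all tested genes. *Ppargc1a*, a coactivator of mitochondrial biogenesis, was low in both fractions, at 1.90, 3.06, 3.41 and 2.40 CPM in the EpCAM+ and at 0.936, 0.592, 0.410 and 0.221 CPM in the EpCAM− libraries. These did not overlap, with a log2 fold change of 2.29 (SE 0.39, adjusted p = 0.00145), and *Mycn* (1.41, SE 0.28, adjusted p = 0.00282) and *Gabpb1*, a subunit of the ETS factor GABP (0.33, SE 0.07, adjusted p = 0.00457), were the others called higher. A list of cytosolic ribosomal protein genes, matched by symbol, had 24 of 83 tested genes called lower with edgeR (28.9%, beside 20.8% of all tested genes) and 0 higher. At an unadjusted p under 0.05 there were 38 lower and 1 higher, and with DESeq2 37 lower and 1 higher. In 16 of the 83 every EpCAM+ library lay below every EpCAM− library, beside 20.0% of all tested genes. The list median was -0.26, and the genes called lower were led by *Rpl29* (log2 fold change -0.79, adjusted p = 0.00102), *Rpl8* (-0.48, adjusted p = 0.00362) and *Rpl10* (-0.55, adjusted p = 0.00471). The 24 include *Rps19bp1* and *Rpl7l1*, named after their values were seen, which match the symbols but are not ribosomal proteins. Proliferation genes had 10 of 15 called lower, against 11 with DESeq2 and 12 at an unadjusted p under 0.05, and 0 higher by each of these. They had a median of -0.30, led by *Ccna2* (-0.57, adjusted p = 0.00165), *Aurkb* (-0.48, adjusted p = 0.00334) and *Plk1* (-0.56, adjusted p = 0.00864). They summed to 2863, 3229, 2652 and 3243 CPM in the EpCAM+ and 3621, 3733, 3490 and 4321 CPM in the EpCAM− libraries, with *Ube2c* the most abundant, and their part in the members' decrease was not tested.

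Members lie on 17 chromosomes, with 11 on chromosome 11 (10 called lower), 8 on chromosome 17 (6 called lower) and none on chromosomes 12, 18 and X. A gene on the opposite strand starts within 1000 bases upstream of 21 of 78 members (26.9%), which holds for 16.2% of 11735 tested protein-coding genes. Of these members 18 of 21 were called lower (median -0.39), and of those without such a neighbour 40 of 56 (median -0.37). Of the 20 neighbours tested, 4 were called lower and 3 higher, with a median of -0.14, beside 20.8% and 21.8% of all tested genes. *Ptcd2*, a mitochondrial pentatricopeptide repeat gene 81 bases from *Mrps27*, had a log2 fold change of -0.32 (SE 0.07, adjusted p = 0.00532), beside -0.74 for *Mrps27*. *Sars2*, a mitochondrial tRNA synthetase 172 bases from *Mrps12*, had -0.48 (SE 0.10, adjusted p = 0.00459), beside -0.27 for *Mrps12*. The other neighbours called lower, named after their values were seen, were *Psma2* beside *Mrpl32* and *Ska3* beside *Mrpl57*. *Klc4*, 207 bases from *Mrpl2* (-0.51), had a log2 fold change of 0.41 (SE 0.14, adjusted p = 0.041), a call lost without any 1 of EpCAM+ replicates 1, 2 and 3 or EpCAM− replicates 3 and 4 (adjusted p from 0.0679 to 0.11) or with no filter beyond 1 count (0.0608). *Pnpla7*, 935 bases from *Mrpl41*, had 0.24 (SE 0.09, adjusted p = 0.0464), a call lost without any 1 of the libraries other than EpCAM− replicate 4 (adjusted p from 0.0692 to 0.13), with RLE scaling (0.0539) or with no filter beyond 1 count (0.117). The antisense gene *C920021L13Rik*, 3 bases from *Mrps21*, had 1.08 (SE 0.25, adjusted p = 0.00611).

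Promoter windows of 300 bases, from 250 before to 50 after the gene's start, were taken from RefSeq (GRCm38.p6) for the 69 members matched by symbol, of 27025 genes in that table, and searched on both strands for the letters of 5 motifs, none of which contains another. The NRF1 motif, GCGCANGCG, was held by 16 of 69 members (23.2%), by 7.03% of all genes in the table and by 15.7% of its tested protein-coding genes. Among members it was found in 12 of 43 large and 4 of 26 small subunit genes. The ETS motif, CCGGAAGT, was held by 12 members (17.4%; 4.31% of all genes, 9.66% of tested protein-coding genes) and the YY1 motif, AAGATGGCG, by 8 (11.6%; 1.64%, 3.77%). The MYC family motif, CACGTG, was held by 5 members (7.25%; 8.09%, 11.9%) and the ZEB1 motif, CAGGTG, by 10 (14.5%; 22.6%, 20.6%). None of the 5 was found in 27 members. The median log2 fold change was -0.34 over 16 members with the NRF1 motif and -0.38 over 52 without it, and -0.55 over 8 members with the YY1 motif (7 called lower) and -0.37 over 60 without it (43 called lower). With and without the others the medians were -0.40 and -0.37 (ETS, 12 and 56 members), -0.51 and -0.37 (MYC family, 5 and 63) and -0.38 and -0.37 (ZEB1, 10 and 58), and these differences were not tested. A match describes letters and says nothing of binding. The windows of the 3 members with the smallest adjusted p that hold the NRF1 motif, the most frequent of the 5 in members, are printed from 5′ to 3′ on the gene's strand with the motif in capitals: *Mrps18b* (chr17:35916391-35916690, minus strand), *Mrpl12* (chr11:120484387-120484686, plus strand) and *Mrpl30* (chr1:37890227-37890526, plus strand).
Mrps18b: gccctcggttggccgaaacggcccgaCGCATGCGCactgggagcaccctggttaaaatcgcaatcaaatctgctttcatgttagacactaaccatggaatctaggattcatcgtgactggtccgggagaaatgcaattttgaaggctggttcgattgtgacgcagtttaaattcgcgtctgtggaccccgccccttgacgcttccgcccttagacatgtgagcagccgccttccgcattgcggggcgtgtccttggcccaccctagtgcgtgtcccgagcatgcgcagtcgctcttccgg
Mrpl12: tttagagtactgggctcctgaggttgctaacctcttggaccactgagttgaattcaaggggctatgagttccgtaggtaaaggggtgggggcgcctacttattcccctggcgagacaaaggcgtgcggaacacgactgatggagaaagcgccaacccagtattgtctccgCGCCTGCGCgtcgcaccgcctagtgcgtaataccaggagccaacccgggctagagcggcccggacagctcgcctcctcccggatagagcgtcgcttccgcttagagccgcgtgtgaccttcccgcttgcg
Mrpl30: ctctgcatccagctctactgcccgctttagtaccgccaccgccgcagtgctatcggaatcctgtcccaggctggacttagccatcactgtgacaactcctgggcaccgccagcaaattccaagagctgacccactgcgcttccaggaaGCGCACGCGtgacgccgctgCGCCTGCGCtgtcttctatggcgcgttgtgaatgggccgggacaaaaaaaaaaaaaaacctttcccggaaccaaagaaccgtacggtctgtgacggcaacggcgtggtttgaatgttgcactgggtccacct

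The labels were checked against their markers. *Epcam* was at 234, 161, 171 and 183 CPM in the EpCAM+ and at 8.99, 3.77, 1.43 and 1.25 CPM in the EpCAM− libraries, far apart, with a log2 fold change of 5.56 (SE 0.47, adjusted p = 0.000121). *Kit*, for c-Kit, was at 308, 244, 328 and 259 CPM in the EpCAM+ and at 245, 155, 221 and 212 CPM in the EpCAM− libraries, and its log2 fold change of 0.45 (SE 0.14, adjusted p = 0.0276) lost the call without any 1 of EpCAM+ replicates 1 and 3 or EpCAM− replicates 2, 3 and 4 (adjusted p from 0.0517 to 0.0832). *Ly6a*, for Sca-1, was at 351, 195, 140 and 116 CPM in the EpCAM+ and at 71.7, 61.3, 16.4 and 15.7 CPM in the EpCAM− libraries, with fractions apart and a log2 fold change of 2.28 (SE 0.53, adjusted p = 0.00658). *Zeb1*, named after its values were seen, was at 23.7, 14.8, 20.8 and 18.8 CPM in the EpCAM+ and at 13.4, 14.0, 10.7 and 9.49 CPM in the EpCAM− libraries (log2 fold change 0.72, SE 0.17, adjusted p = 0.00798), which include reads outside the deleted stretch and so do not measure the deletion.

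Markers of stem cells and of other cell types differed between the fractions beside the members, and their part in the members' decrease was not tested. Of 12 LSK markers 9 were called higher in EpCAM+ cells, among them *Meis1* (log2 fold change 1.20, adjusted p = 0.000211) and *Hlf* (1.91, adjusted p = 0.00025), in sums of 3400, 3187, 3488 and 3266 CPM in the EpCAM+ and 2615, 2541, 2126 and 1794 CPM in the EpCAM− libraries, *Cd34* being the most abundant. Of 9 neutrophil lineage genes *Mpo*, *Elane*, *Prtn3* and, named after its values were seen, *Ctsg* were called lower, in sums of 1097, 1268, 1154 and 1853 CPM in the EpCAM+ and 18563, 13661, 15368 and 11942 CPM in the EpCAM− libraries, with *Mpo* the most abundant. Among erythroid genes *Klf1*, *Epor* and, named after their values were seen, *Car1* and *Hba-a1* were called lower and *Hbb-bt* higher, in sums of 72.6, 52.4, 95.6 and 240 CPM in the EpCAM+ and 1905, 2184, 4877 and 6627 CPM in the EpCAM− libraries, with *Car1* the most abundant. Of 6 mast cell and basophil genes *Cpa3*, *Gzmb*, *Ms4a2* and, named after its values were seen, *Mcpt8* were called lower, in sums of 75.4, 75.6, 69.2 and 92.4 CPM in the EpCAM+ and 237, 325, 497 and 341 CPM in the EpCAM− libraries, with *Cpa3* the most abundant. Of 6 tested monocyte genes *Csf1r*, *Cx3cr1* and, named after its values were seen, *Adgre1* were called lower and *Lyz2*, the most abundant, higher, in sums of 682, 570, 605 and 767 CPM in the EpCAM+ and 547, 476, 425 and 318 CPM in the EpCAM− libraries.

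Of 8 tested dendritic cell genes 7 were called higher, including *H2-Ab1*, *H2-Eb1* and *Xcr1*, in sums of 16227, 1240, 4232 and 16739 CPM in the EpCAM+ and 424, 127, 179 and 219 CPM in the EpCAM− libraries. *Cd74* was the most abundant in the EpCAM+ libraries. In EpCAM− libraries 2 to 4 *H2-Ab1* (95.5, 91.2 and 118 CPM) lay above *Cd74* (11.8, 38.3 and 38.8 CPM). Of 5 tested plasma cell genes *Jchain*, *Mzb1* and *Derl3* were called higher, the last not without EpCAM− replicate 4 (adjusted p = 0.056) and the others given no p by DESeq2, in sums of 3978, 453, 674 and 389 CPM in the EpCAM+ and 257, 259, 245 and 171 CPM in the EpCAM− libraries. *Jchain* was the most abundant in the EpCAM+ libraries, while *Xbp1*, not called, made up 245, 249, 239 and 167 CPM of the EpCAM− sums. Immunoglobulin genes took 5.62, 0.423, 0.705 and 0.440% of counts in the EpCAM+ and 0.0253, 0.0235, 0.0173 and 0.0116% in the EpCAM− libraries, and without EpCAM+ replicate 1, the library with the most, 52 members were called lower. Of 5 tested B cell genes *Ms4a1* and *Cd79a* were called higher, and *Pax5*, listed but not tested, had 0 counts in every library, in sums of 129, 78.8, 73.6 and 88.3 CPM in the EpCAM+ and 57.1, 82.1, 53.7 and 47.9 CPM in the EpCAM− libraries, mostly *Cd79b*. Of 5 tested plasmacytoid dendritic cell genes *Irf7*, *Ly6d* (no p from DESeq2) and *Ccr9* were called higher, and *Klk1*, listed but not tested, had 0 counts, in sums of 333, 234, 259 and 252 CPM in the EpCAM+ and 222, 244, 205 and 181 CPM in the EpCAM− libraries, with *Bst2* the most abundant. Of 8 listed T cell genes *Lck* alone was tested, and it was called higher. Of 5 tested megakaryocyte genes *Gp9* was called higher, beside 21.8% of all tested genes. In 0 of these 5 did the fractions not overlap, and their median was 0.15. *Nkg7*, the single natural killer cell gene tested of 7 listed, was not called. Among lineage antigens *Cd4* was called higher, but not with no filter beyond 1 count (adjusted p = 0.0743) and not without any 1 of EpCAM+ replicates 2, 3 and 4 or EpCAM− replicates 1, 3 and 4 (adjusted p from 0.0502 to 0.123).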

How the data were processed

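The authors amplified RNA with SMART-Seq v4, put 1 ng of cDNA into each library, sequenced paired reads of 150 bp, aligned them with STAR 2.6.1d to GRCm38.p6 and deposited raw counts per gene from featureCounts 1.5.0-p3. Annotation release, strand setting and handling of reads that fit several genes are not stated. The 8 per-sample FPKM columns and the authors' comparison columns (DESeq2 1.20.0) were not used.

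Counts were analysed in R 4.3.3 with edgeR 4.0.16: genes kept by filterByExpr, TMM scaling, quasi-likelihood test (two-sided) of EpCAM+ against EpCAM−, Benjamini-Hochberg adjustment over all 13560 tested genes and a threshold of 0.05. SE are the log2 fold change over the root of F. CPM were taken over library sizes scaled by TMM, with a prior count of 2 in log2 CPM. The procedure was tested on simulated data. Reads carry no molecular identifiers, so they are not independent molecules.

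Same-number libraries deviated together from their fraction means (r across genes, which are not independent replicates, 0.356, 0.263, 0.205 and 0.266; other pairs -0.216 to 0.0396), so the replicate numbers in the labels pair the samples. What they share is not stated, and the main fit did not use this pairing. The first principal component (70.6% of variance) separated the fractions, and no library duplicated another.

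Alternatives were DESeq2 1.42.0, RLE, upper-quartile and library-total scaling, no filter beyond 1 count, a minimum of 10 counts throughout, protein-coding genes without the rest, a block for replicate number, leaving out each library in turn, subunits by structure and a neighbour window of 500 bases.

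Genes named were *Epcam*, *Kit* and *Ly6a*; per subunit the 6 called members with the smallest adjusted p and fractions apart, the 4 tested members with the largest, and the 2 most and 2 least abundant per length; members called higher or not tested; members of set structural interest; subunits with other names; up to 3 genes with the smallest adjusted p, and genes called against the list's direction, in each other list; and up to 3 neighbours with the smallest adjusted p and those called higher. Members and lists were chosen with earlier results of these data known.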

Additional observations from a re-analysis of the deposited data

Results flagged for a closer look

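In 108 groups of 4 libraries examined, 74 of them for members, 8 held a library whose gap to its nearest neighbour took most of the group's range (Dixon's test at its 95% critical value, which chance passes in about 1 of 20 groups). In EpCAM− replicate 2, *Mrpl33* had 126 CPM (the nearest other EpCAM− library 89.5), *Mrpl48* had 120 CPM (nearest 93.5), *Mrpl14* had 80.0 CPM (nearest 54.6) and *Mrps33* had 106 CPM (nearest 78.8). In EpCAM+ replicate 1, *Mrpl47* had 34.3 CPM, under the nearest library at 39.2. The summed plasma cell markers had 3978 CPM in EpCAM+ replicate 1 (nearest 674) and 171 CPM in EpCAM− replicate 4 (nearest 245). Immunoglobulin genes took 5.62% of the counts of EpCAM+ replicate 1 (nearest 0.705%).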

How the results depend on the processing

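Members called lower numbered 58, from 49 to 62 when 1 library was left out and from 47 (upper-quartile scaling, library totals) to 68 (a block for replicate number) in the other alternatives; members called higher numbered 0 in all 16. The member median was -0.38, from -0.43 to -0.35 without 1 library and from -0.39 to -0.29 otherwise. Members with fractions apart and lower numbered 54, from 54 to 61 and from 40 to 55. All genes called numbered 5779, from 4662 to 6039 and from 5076 to 6818. Upper-quartile scaling moved the median of all genes from 0.02 to 0.11 and the calls that were higher from 51.2% to 63.6%, library totals to 0.11 and 62.7%, and no filter beyond 1 count to 0.14 and 52.1%; the member median minus the gene median was -0.40 by TMM, -0.40 with upper-quartile scaling, -0.40 with library totals and -0.54 with no filter beyond 1 count. The difference of the subunit medians was -0.01 by structure. Within 500 bases 20 members had a neighbour.

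Signs turned where values lay near 0, and the cause was not tested. *Mrpl48* had 0.0792 with upper-quartile scaling, 0.0786 with library totals, 0.0187 with 10 counts in every library and -0.0561 to 0.0845 without 1 library. *Mrpl14* had -0.00604 with DESeq2, -0.00592 with RLE scaling, -0.0133 with no filter beyond 1 count and -0.0804 to 0.172 without 1 library. *Mrps6* had 0.00651 with upper-quartile scaling, 0.00758 with library totals and -0.134 to 0.0039 without 1 library. Without 1 library *Mrpl13* ranged from -0.00338 to 0.137, *Chchd1* from -0.222 to 0.00425, *mt-Rnr2* from -0.226 to 0.0573 and *Itga2b* from -0.0258 to 0.26. Of 37 named members over 296 values without 1 library, 270 kept sign and side of the threshold, as did 276 of 296 in the other alternatives; for 77 other genes these were 578 of 616 and 590 of 602. Counts limit the precision of weakly expressed genes such as *Ppargc1a*. What the counting did with reads that fit several genes limits *Mrpl53*, *Mrps25* and *Mrps34*.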
